A study of Mus musculus with 2 samples.

Results

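The family of miR-15, miR-16 and miR-195 was described here through the 5 genes that have a row of their own in the count tables, Mir15a, Mir15b, Mir16-1, Mir16-2 and Mir195a. They were chosen by name and not by a cut on their counts, although earlier results of these data were known. They are 5 of the 1973 microRNA genes counted. Small RNA reads were sequenced from total RNA of whole kidneys of B6NCrl mice at postnatal day 0. The 2 kidneys of 1 pup made 1 sample. The series holds 2 samples, pup 2 and pup 1, which the labels place under 1 pregnancy and 1 donor label, with sex not collected. No treatment, mutant or second age was part of the design, so levels were compared between genes of the family and between the pups. Levels are CPM, gene-strand counts scaled to 1000000 counts over all microRNA genes of the library, given as mean ± SD over 2 pups.

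MicroRNAs bind messenger RNAs mainly through the seed, bases 2 to 8 of the mature strand, and lower their translation and stability. MicroRNAs of the miR-15/16 family are known to repress genes of the cell cycle and of cell survival, among them Bcl2, Ccnd1 and Ccne1, and loss of the MIR15A and MIR16-1 locus is a frequent lesion of human chronic lymphocytic leukaemia. In the mouse heart, miR-195 is known for a part in the withdrawal of cardiomyocytes from the cell cycle after birth. The mouse kidney still forms nephrons at birth, so dividing progenitors and maturing tubules are present together.

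The mature strands of the 5′ arm are shown because their seed defines the family, with the seed in capitals. They were taken from RefSeq on build GRCm38.p6, which had mature entries for 5 of 5 members and a hairpin entry for 4 of them.
mmu-miR-15a-5p: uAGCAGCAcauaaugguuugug
mmu-miR-15b-5p: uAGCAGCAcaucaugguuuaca
mmu-miR-16-5p: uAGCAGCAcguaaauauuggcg
mmu-miR-195a-5p: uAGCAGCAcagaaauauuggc
These 4 sequences, of 21 to 22 bases, begin with the same 9 bases, and Mir16-1 and Mir16-2 carry the identical miR-16-5p. Position by position, miR-16-5p and miR-195a-5p matched at 19 of 21 bases and miR-15a-5p and miR-15b-5p at 18 of 22, while miR-15b-5p and miR-16-5p matched at 14 of 22. The mature strands have nearly the same length in each gene, so levels were compared between genes without a correction for gene length. The counts do not show which part of a hairpin a read covers.

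The hairpins of Mir16-1 and Mir16-2 are shown because they decide which reads can be counted for either gene, and capitals mark the stretch they share.
Mir16-1: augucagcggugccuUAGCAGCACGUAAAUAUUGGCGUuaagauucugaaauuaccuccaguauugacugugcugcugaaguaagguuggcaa
Mir16-2: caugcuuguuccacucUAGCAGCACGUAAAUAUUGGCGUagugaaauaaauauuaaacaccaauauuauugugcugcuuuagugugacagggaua
That stretch of 23 bases holds the whole miR-16-5p of 22 bases and 1 base after it. A read of miR-16-5p without further bases therefore matches both hairpins, and multimapping reads, 31.0% of reads in pup 2 and 30.3% in pup 1, are not part of gene counts. The 3′ arms of the pair differ and are shown for comparison, again with bases 2 to 8 in capitals.
mmu-miR-16-1-3p: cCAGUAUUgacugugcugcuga
mmu-miR-16-2-3p: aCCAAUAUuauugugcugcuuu
Their longest common stretch was 9 bases. Counts of Mir16-1 and Mir16-2 thus lack whichever of their reads were set aside as multimapping, the arms within each count cannot be told apart, and the levels of these genes are uncertain. The other members shared at most 16 bases with any of the 2200 other microRNA hairpins of GENCODE release M21, 13 in Mir15a, 12 in Mir15b and 16 in Mir195a.

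The depth behind every value was 3846704 gene-strand counts in pup 2 and 5832192 in pup 1. The tissue label was set beside microRNAs known from kidney, a list chosen with earlier results of these data known. Of these, 11 of 11 listed genes, among them Mir10a, Mir196b, Mir30a and Mir192, had at least 10 CPM in both pups, as did 12.5% of all microRNA genes. The 4 leukocyte genes with a row and 2 of 6 listed genes of other tissues also reached 10 CPM, so this bar does not set kidney apart. Together the 11 kidney genes held 28.9% of counts in pup 2 and 30.2% in pup 1. Mir10a alone held 15.1% in pup 2 and 15.8% in pup 1, and Mir10b 6.77% and 6.99%. Mir192 held only 0.0602% in pup 2 and 0.0524% in pup 1. The 6 listed genes of other tissues held 0.0189% in pup 2 and 0.0180% in pup 1, and Mir1a-1, Mir133a-1 and Mir124a-1 of muscle and brain were at 0 counts, which does not bound genes with near-identical copies elsewhere. The other listed genes of that kind were counted, Mir375 at 141 CPM in pup 2 and 117 CPM in pup 1, Mir122 at 44.2 CPM in pup 2 and 56.9 CPM in pup 1, and Mir206 at 4.42 CPM in pup 2 and 5.14 CPM in pup 1.

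All 5 members were detected well above the limit that a count of 0 allows, which is 3 counts, or 0.780 CPM in pup 2 and 0.514 CPM in pup 1. Mir15a had 4493 CPM in pup 2 and 4073 CPM in pup 1, a mean of 4283 ± 297 CPM. It was the highest member in both pups and ranked 33 among all microRNA genes. Mir16-1, its neighbour in the same host gene, had 2831 CPM in pup 2 and 2632 CPM in pup 1, a mean of 2731 ± 141 CPM at rank 45. Mir195a, the member with a chromosome 11 locus, had 2088 CPM in pup 2 and 2055 CPM in pup 1, a mean of 2071 ± 23.1 CPM at rank 51. These 3 genes kept their order in each pup.

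Mir15b had 1607 CPM in pup 2 and 1641 CPM in pup 1, a mean of 1624 ± 24.1 CPM at rank 59. Mir16-2, which carries the same mature miR-16-5p as Mir16-1, had 731 CPM in pup 2 and 685 CPM in pup 1, a mean of 708 ± 32.8 CPM at rank 85. It was the lowest member in both pups. Of the members, 4 of 5 reached 1000 CPM in both pups, as did 3.70% of all microRNA genes.

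**Figure D1:**
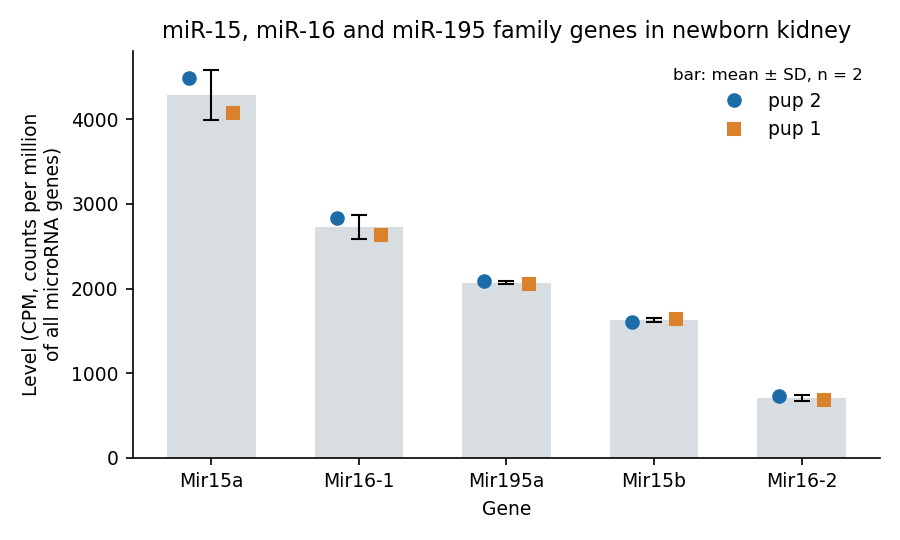
Level in CPM (vertical axis, from 0) of each family gene (horizontal axis), with pup 2 as circles, pup 1 as squares, and bars for the mean ± SD over 2 pups. Values step down from 4283 CPM in Mir15a to 708 CPM in Mir16-2, and the pups of neighbouring genes do not overlap.

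Each neighbour in this order was farther from the next than the spread between the pups. The smallest gap relative to it was between Mir16-1 and Mir195a, 660 CPM or 4.70 times the larger SD, and that between Mir15b and Mir16-2 was 916 CPM. With 2 pups in 1 group this is a description with no test, and the reads obtained per molecule of a given microRNA are unknown. The place of Mir16-1 and Mir16-2 in the order holds for counted reads only.

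Within the whole table, most members lay beside genes of other families at a like mean level. Mir195a stood between Mir182 (2076 ± 204 CPM) and Mir423 (2054 ± 217 CPM). Mir15b stood between Mir361 (1634 ± 65.3 CPM) and Mir92-1 of the miR-17~92 cluster (1616 ± 34.9 CPM). Mir16-2 lay between Mir542 (725 ± 3.17 CPM) and Mir532 (696 ± 22.6 CPM). The gaps of these genes to the member were smaller than the larger SD of the pair. Mir16-1 lay between Mir351 (2904 ± 238 CPM) and Mir18 (2639 ± 9.51 CPM), again within the larger SD by their means, although Mir351 was above it in each pup, at 3072 CPM in pup 2 and 2736 CPM in pup 1. Mir15a had Mir151 above it (4645 ± 84.8 CPM), farther away than the SD of either gene, and Mir214 below it (4141 ± 15.1 CPM), within the SD of Mir15a. This likeness is one of mean level over 2 samples.

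The members come from 3 loci, given here on mm10. Mir15a (ENSMUSG00000093007.1, chr14:61632027-61632110) and Mir16-1 (ENSMUSG00000092995.1, chr14:61631880-61631972) lie on the minus strand, 54 bases apart, in Dleu2, a long noncoding RNA gene. None of the 8 Dleu2 transcripts that span Mir15a has an exon there. Of 9 transcripts at Mir16-1, 1 has an exon that reaches 13 bases into the hairpin. Mir15b (ENSMUSG00000065580.1, chr3:69009772-69009835) and Mir16-2 (ENSMUSG00000065606.1, chr3:69009902-69009996) lie on the plus strand, 66 bases apart, in introns of all 5 spanning transcripts of Smc4, which encodes a subunit of condensin. Mir195a (ENSMUSG00000065411.2, chr11:70235042-70235135) lies on the plus strand with no annotated host gene on that strand, 241 bases downstream of Mir497.

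Counted reads leave out any reads of the Mir16 genes that were set aside as multimapping. The Dleu2 locus held most of the family's counted reads. Mir15a and Mir16-1 together held 62.3% of them in pup 2, with a 95% Wilson interval of 61.9 to 62.8%, and 60.5% in pup 1, with one of 60.1 to 60.9%. The Smc4 locus held 19.9% in pup 2 (19.5 to 20.3) and 21.0% in pup 1 (20.7 to 21.3). Mir195a alone held 17.8% in pup 2 (17.4 to 18.1) and 18.5% in pup 1 (18.2 to 18.8). The order of the first locus above the other 2 was the same in both pups, and intervals cover counting error only, since the tables give reads and not independent molecules.

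At both paired loci the Mir15 gene was counted more often than its Mir16 neighbour. Mir15a exceeded Mir16-1 1.59-fold in pup 2 (95% exact counting interval 1.55 to 1.63) and 1.55-fold in pup 1 (1.52 to 1.58). Mir15b exceeded Mir16-2 2.20-fold in pup 2 (2.10 to 2.30) and 2.40-fold in pup 1 (2.31 to 2.49). Both ratios are raised by any miR-16-5p reads that were listed as multimapping, and the size of that share was not measured.

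Between the loci, the Dleu2 genes were counted more often than their Smc4 counterparts. Mir15a exceeded Mir15b 2.80-fold in pup 2 (2.72 to 2.88) and 2.48-fold in pup 1 (2.42 to 2.54). In counted reads, Mir16-1 exceeded Mir16-2 3.87-fold in pup 2 (3.71 to 4.04) and 3.84-fold in pup 1 (3.71 to 3.98). The counting intervals of the pups did not overlap for the first ratio and overlapped for the second. The second ratio leaves out reads that match both hairpins, which were set aside as multimapping. How many such reads came from each gene was not measured, so this ratio does not show the output of the loci.

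**Figure D2:**
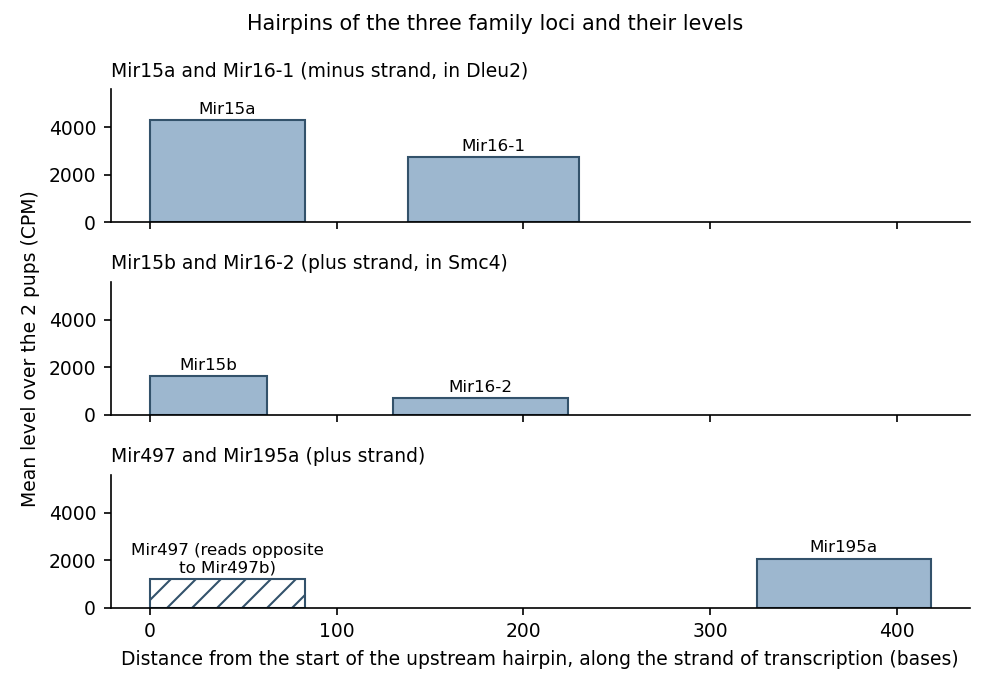
Mean level over 2 pups in CPM (vertical axis, from 0) of each hairpin at the 3 loci, drawn to scale by distance in bases from the start of the upstream hairpin (horizontal axis). The hatched bar is the level of reads opposite to Mir497b, and in both paired loci the Mir15 hairpin stands above the Mir16 hairpin.

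Mir497, the neighbour of Mir195a and carrier of the same seed, was not counted as a gene in these tables. Its hairpin of 84 bases (chr11:70234717-70234800, plus strand) lies wholly inside that of Mir497b (chr11:70234692-70234816, minus strand), so reads opposite to Mir497b are on the strand of Mir497. The mature 5′ strand of Mir497 is shown with its seed in capitals.
mmu-miR-497a-5p: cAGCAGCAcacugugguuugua
Opposite to Mir497b there were 4395 reads, or 1143 CPM, in pup 2 and 7466 reads, or 1280 CPM, in pup 1. On the strand of Mir497b itself there were 0 counts in pup 2 and 1 in pup 1. Mir195a stood at 1.83 times the opposite reads in pup 2 (1.76 to 1.90) and 1.61 times in pup 1 (1.56 to 1.65), so the hairpin with a row of its own was the higher in both. Opposite to the 5 members there was 1 read in all, at Mir195a in pup 1.

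The seed AGCAGCA was found in 11 microRNA genes of the 1738 mature RefSeq entries searched, 10 of which have a row. Beyond the 5 members, the genes with a row are Mir322, Mir195b, Mir6342, Mir6353 and Mir6419. Mir322, an X-linked microRNA whose human counterpart is miR-424, carries it on its 5′ arm.
mmu-miR-322-5p: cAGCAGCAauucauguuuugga
Its level was 43483 CPM in pup 2 and 44100 CPM in pup 1, far above any member, and it ranked 6 among all genes. The 5 members together reached 11750 CPM in pup 2 and 11086 CPM in pup 1. Of all counts in genes with this seed, the members held 20.7% ± 0.838 and Mir322 held 79.3% ± 0.839. With the reads at Mir497, which carries the seed but has no row, in the total, the members held 20.2% ± 0.855 and Mir322 77.6% ± 0.686. Both splits count both arms of each hairpin and leave out multimapping reads. Mir195b, whose mature strand resembles miR-195a-5p, had 1 count in pup 2 and 0 in pup 1. Mir6342, Mir6353 and Mir6419 had 0 counts in both pups.

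The wider miR-15 and miR-107 group holds microRNAs with a related AGCAGC motif near the 5′ end. Mir503, which lies beside Mir322, had 747 CPM in pup 2 and 788 CPM in pup 1, above Mir16-2 in each pup. Mir107, an intronic microRNA of the Pank1 gene, had 1658 CPM in pup 2 and 1867 CPM in pup 1, above Mir15b in each pup. Their mature strands are shown for how they differ from the family at the seed, with bases 2 to 8 in capitals.
mmu-miR-503-5p: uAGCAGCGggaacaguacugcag
mmu-miR-107-3p: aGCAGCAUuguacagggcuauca
Mir103-2 had 34.1 CPM in pup 2 and 33.9 CPM in pup 1. Mir103-1 had 4 counts in pup 2 and 20 in pup 1. Both carry the identical miR-103-3p, so reads of it can match 2 places and these counts do not bound its level.

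**Figure D3:**
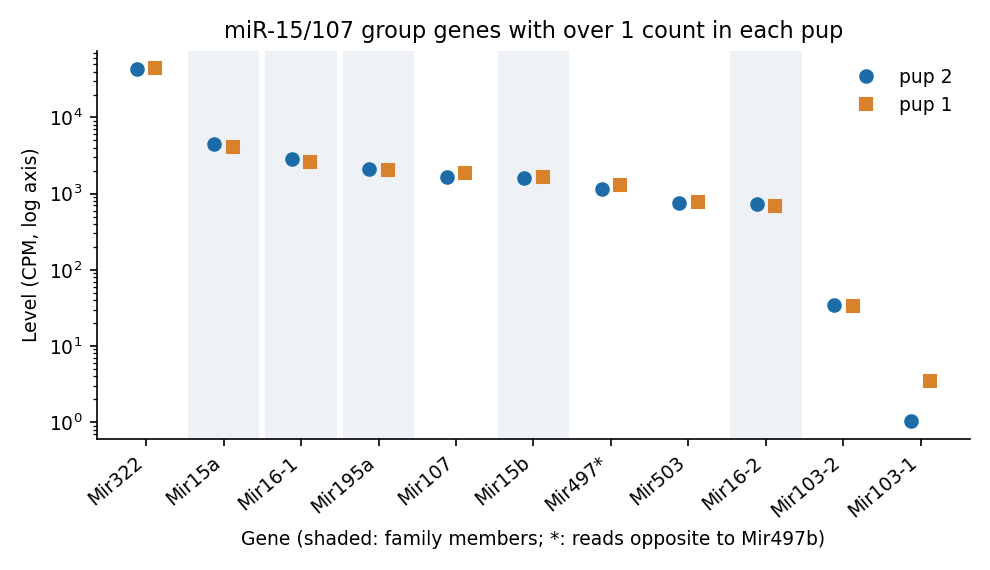
Level in CPM (vertical axis, log scale) of the miR-15 and miR-107 group genes with more than 1 count in each pup (horizontal axis, sorted), with pup 2 as circles and pup 1 as squares. The point marked Mir497* shows reads opposite to Mir497b, which are not the counts of a gene with a row. Mir322 stands above the shaded family members, and Mir103-1 and Mir103-2 stand below them.

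As a share of all counts the family held 1.18% in pup 2, with a 95% Wilson interval of 1.16 to 1.19%, and 1.11% in pup 1, with one of 1.10 to 1.12%. The 6 listed genes of the cluster of miR-322 and miR-503, a pair known to slow the cell cycle, held 4.81% in pup 2 and 4.84% in pup 1. That list leaves out Mir450b, which had 143 CPM in pup 2 and 166 CPM in pup 1. The 6 genes of the miR-17~92 cluster, known from proliferating progenitor cells, held 3.11% in pup 2 and 3.42% in pup 1. In counted reads the family lay below both clusters by more than the spread between the pups. Members of the clusters that have copies elsewhere also lose multimapping reads, as Mir16-1 and Mir16-2 do. The size of that loss was not measured for the family or the clusters.

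Between the pups, the genes of the Dleu2 locus were the members that passed the adjusted exact binomial test, both slightly higher in pup 2. Mir16-2 joined them under other scalings. Mir15a had 17285 counts in pup 2 and 23754 in pup 1, which after scaling by effective library size gave a log2 ratio of pup 2 over pup 1 of 0.12 (95% counting interval 0.09 to 0.15; exact binomial test, adjusted p = 6.2e-16). Mir16-1 had 10889 counts in pup 2 and 15350 in pup 1, a log2 ratio of 0.08 (0.05 to 0.12; same exact test, adjusted p = 2.2e-05). On the linear scale Mir15a was 1.09-fold and Mir16-1 1.06-fold higher in pup 2.

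The genes of the other loci did not pass. Mir16-2 had 2813 counts in pup 2 and 3994 in pup 1, a log2 ratio of 0.07 (0.0035 to 0.14; exact binomial test, adjusted p = 0.11). Mir15b had 6182 counts in pup 2 and 9572 in pup 1, a log2 ratio of -0.05 (-0.098 to -0.0051; exact binomial test, adjusted p = 0.083). Mir195a had 8030 counts in pup 2 and 11984 in pup 1, a log2 ratio of 0.0017 (-0.039 to 0.043; exact binomial test, adjusted p = 0.98). The intervals of Mir16-2 and Mir15b leave out 0, on opposite sides. Before adjustment over all tested genes, the exact binomial test gave p = 0.039 for Mir16-2 and p = 0.029 for Mir15b. An adjusted p above the threshold of 0.05 does not show that these genes were level between the pups.

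In all, 2 of 5 members passed, both as higher in pup 2, against 33.6% of the 324 genes tested, 12.7% as higher and 21.0% as lower. Among the 99 tested genes with a mean of at least 500 CPM, where counts are large, 73.7% passed, so passing was common at the level of the members. The median log2 ratio was 0.07 over the 5 members and -0.04 over all tested genes. The scaling moved 1 call, since Mir16-2 passed as higher in pup 2 with library totals (adjusted p = 0.028 by the exact binomial test), with DESeq2 size factors (0.046) and with TMM over the tested genes alone (0.025). With that last scaling the calls over all genes split into 48 higher and 50 lower in pup 2, against 41 higher and 68 lower with TMM over all genes. Each side of the test is 1 library, so it compares the reads of 2 libraries and knows counting error only. An edgeR exact test with the dispersion between the pups called 0 of 5 members, and 0.309% of all tested genes. At an unadjusted p under 0.05 these were 0 of 5 members and 4.32% of tested genes. The dispersion was estimated from the same 2 libraries taken as 1 group, so it includes the difference under test. Few calls follow from that setup and do not show that the pups were alike.

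**Figure D4:**
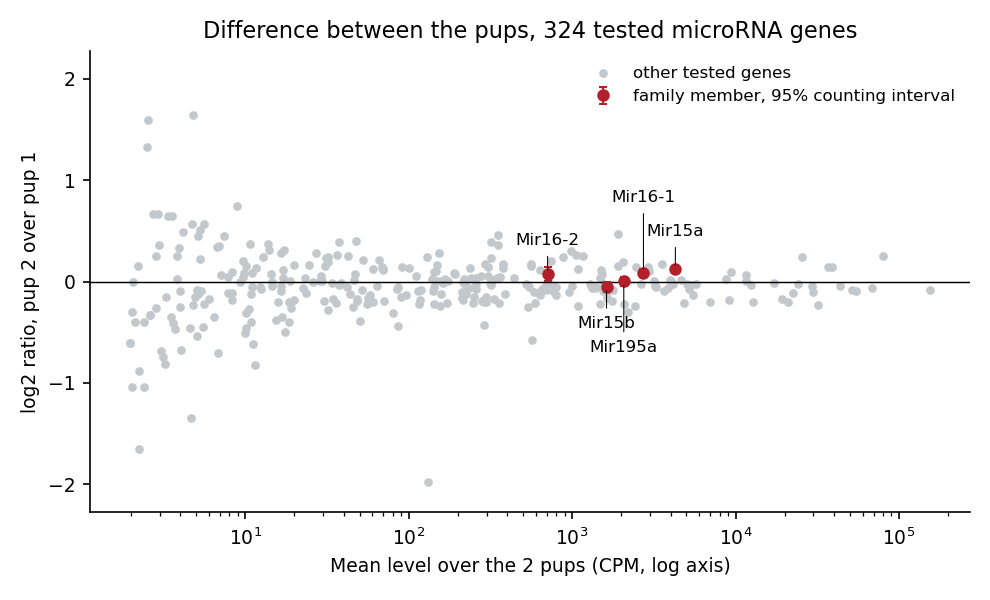
The log2 ratio of pup 2 over pup 1 (vertical axis) against the mean level in CPM (horizontal axis, log scale) for the 324 tested microRNA genes, with family members as filled circles with 95% counting intervals and other genes in grey. The members lie between -0.05 and 0.12, inside the cloud of genes of like level.

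Markers of other cell types are given for the same libraries, with calls from the same exact binomial test adjusted over all tested genes. Of the erythroid genes, Mir451a was lower in pup 2, at 53.6 CPM in pup 2 and 208 CPM in pup 1, and Mir144 was higher, at 42.9 CPM in pup 2 and 32.2 CPM in pup 1. Mir486, below the filter of the test, had 2.34 CPM in pup 2 and 0.686 CPM in pup 1. The 3 erythroid genes summed to 98.8 CPM in pup 2 and 241 CPM in pup 1, a difference that Mir451a alone carries. The 4 leukocyte genes with a row summed to 672 CPM in pup 2 and 735 CPM in pup 1, where Mir223 passed as lower in pup 2 and Mir155, Mir150 and Mir146 did not pass. Mir126a, the only gene of the endothelial list, passed as higher in pup 2, with 87209 CPM in pup 2 and 71968 CPM in pup 1. Outside the lists, Mir221, also known from endothelium, passed as lower in pup 2, at 632 CPM in pup 2 and 666 CPM in pup 1. Mir222 did not pass. The 3 genes of mesenchyme and smooth muscle summed to 44294 CPM in pup 2 and 40011 CPM in pup 1. Mir143 and Mir145a passed as higher in pup 2 and Mir214 did not pass. Stromal Mir199b, outside the lists, passed as lower in pup 2, at 203 CPM in pup 2 and 226 CPM in pup 1. Mir199a-1 and Mir199a-2 did not pass. No listed gene of these 4 lists with a row was at 0 counts in both pups. Their part in the difference of Mir15a and Mir16-1 was not tested. In whole tissue, fewer cells of a type and less RNA per cell cannot be told apart.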

How the data were processed

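The authors deposited raw whole-number counts in 3 columns for 1973 microRNA genes in each of 2 libraries. Reads were aligned to mm10 and counted over annotation release M4, per the deposited notes. Aligner, trimming and filters were not given in the sources used here. From the values, the columns are either-strand, gene-strand and opposite-strand reads. The gene-strand column was used, and rows that name no gene were left out (42.6% of reads in pup 2, 41.8% in pup 1). Identifiers were matched without version to GENCODE M21, with 1894 matched. Sequences came from RefSeq (GRCm38.p6). Genes averaging 10 or more counts were compared between pups by an exact two-sided binomial test on edgeR 4.0.16 TMM effective library sizes, with Benjamini-Hochberg adjustment over 324 genes and a threshold of 0.05. The test was tried on simulated counts with counting error alone, which does not cover the larger spread between these libraries. Log2 ratios used a prior count of 0.5. DESeq2 1.42.0 size factors and library totals were alternatives. Chi-square between the libraries was 66.2 per degree of freedom, above counting noise, which cannot show that they came from separate animals. They were kept as 2 samples because the labels name pup 1 and pup 2. Members, lists and tests were chosen with earlier results of these data known. Genes named are the members, the miR-15 and miR-107 group, genes sharing the seed, the listed markers, hairpins within 10 kb and the genes next to each member in mean level. Mir221, Mir222 and the Mir199 genes were added beside the marker lists after the data were seen.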

Additional observations from a re-analysis of the deposited data

Results flagged for a closer look

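Reads opposite to Mir497b lie outside the gene-strand counts and were above the 3-count limit in both pups, at 1143 CPM in pup 2 and 1280 CPM in pup 1, a mean of 1211 ± 97.3 CPM. Scaled like the genes, they were lower in pup 2 with a log2 ratio of -0.19 (counting interval -0.24 to -0.13), a direction that Mir195a, 241 bases downstream, did not share at 0.0017. The difference between these ratios was not tested. Among the 99 tested genes with a mean of at least 500 CPM, 73.7% passed the exact binomial test between the pups. Their median absolute log2 ratio was 0.097, so an interval that leaves out 0 is common at this level.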

How the results depend on the processing

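The family's share of counts was 1.14% and became 1.35% without Mir10a in the total, 0.660% of all reads of the library, 1.26% with the reads at Mir497 and 0.801% without Mir16-1 and Mir16-2, the last 2 chosen after seeing the data, each by construction of its list or total. Either-strand counts gave 1.12%, and put Mir15b at 1591 CPM and Mir195a at 2029 CPM, since opposite-strand reads enter the total. Leaving out 1 pup gave shares of 1.11 to 1.18%, levels of 4073 to 4493 CPM for Mir15a, 2632 to 2831 for Mir16-1, 2055 to 2088 for Mir195a, 1607 to 1641 for Mir15b and 685 to 731 for Mir16-2, and ratios of 1.55 to 1.59 for Mir15a over Mir16-1 and 2.20 to 2.40 for Mir15b over Mir16-2. Members passing the test between pups numbered 2, or 3 under each of the other scalings, 2 with no filter or a mean count of at least 100, and 0 with the edgeR exact test, which called 1 of 324 genes against 109. The dispersion of that edgeR test includes the difference between the pups, so its few calls are no separate check. No member changed the sign of its ratio under these settings. No paired analysis was possible because both samples form 1 group. Depth did not limit detection of any member, but shared sequence limits what the counts of Mir16-1 and Mir16-2 can show.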
